A study of Mus musculus with 7 samples.

Results

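Collagens are the main structural proteins of the extracellular matrix, and their assembly needs a set of dedicated enzymes and helpers. The genes described here are 37 rows of an RNA sequencing table of 13376 rows from C2C12 cells, a mouse myoblast line. They were picked by a rule on gene names, which was set with earlier results of these data known. 23 are collagen chains (Col followed by a type and a chain number). The other 14 are the lysyl oxidases Lox and Loxl1 to Loxl4, the lysyl hydroxylases Plod1 to Plod3, the prolyl 4-hydroxylase subunits P4ha1 to P4ha3, the chaperone Serpinh1, and the procollagen processing factors Bmp1 and Pcolce.

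Procollagen chains are hydroxylated on proline and lysine in the endoplasmic reticulum, where 3 chains wind into a triple helix under the care of the chaperone HSP47. After secretion, proteases such as BMP1 trim the ends, the trimmed molecules assemble into fibrils or networks, and lysyl oxidases start the crosslinks that harden them. In muscle, fibrillar collagens I, III and V form the connective tissue between fibers. Collagens IV and VI lie in and next to the basement membrane of each fiber.

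The study compared C2C12 cells given a scrambled siRNA (2 libraries, SCR_1 and SCR_2) with cells given an siRNA against the long noncoding RNA lnc-31 (2 libraries, SI_1 and SI_2). Values are FPKM, which divide a gene's fragments by transcript length and by library size, so that different genes are compared per length. A second experiment recovered RNA from C2C12 cells on biotinylated antisense probes, labelled specific (ODD, 1 library, called lnc-31 probes here) or aspecific (lacZ, 1 library), and is given as lists of peaks. The input library of that experiment was not analysed here. All cells are of 1 cell line, and the labels name no separate cultures behind the libraries of a group, so p-values may reflect technical spread alone.

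The median FPKM was 10.8 to 11.2 per library, and read depth is unknown from these files. Libraries of a group ranked the rows alike (Spearman's rho 0.993 for the scrambled siRNA pair and 0.991 for the lnc-31 siRNA pair). On the first principal component SI_1 scored 39.1 against -16.3 to -10.4 for the others. The rows behind that score included mitochondrial tRNA rows above 0 in SI_1 alone, such as mt-Tp (371587 FPKM) and mt-Tr (414236). Their weight in the score was not tested. The 18 rows of genes encoded by mitochondrial DNA summed to 342951 to 1434610 FPKM per library. Values high in 1 library alone held most of each sum, such as mt-Nd2 at 395110 FPKM in SCR_2 and 2876 to 3401 in the others. Steadier rows included mt-Cytb (6254 to 6777 FPKM) and mt-Nd1 (6896 to 7854). None of the 18 was called by limma (2 lower and 0 higher at an unadjusted p under 0.05), and their part in the results was not tested. No row is named lnc-31, so the knockdown could not be checked. The row that names Mir31, at the lnc-31 locus, together with XLOC_026180 showed no clear fall (limma log2 fold change -0.14, adjusted p = 0.38). It stood at 13.4 and 15.6 FPKM after scrambled siRNA and at 12.1 and 14.1 with lnc-31 siRNA. Directions below are therefore those of libraries labelled lnc-31 siRNA. The muscle lineage markers Myod1, Myf5, Des, Cdh15, Myog and Chrna1 were all present at 34.5 FPKM or more. The endothelial markers Pecam1, Cdh5, Kdr and Tek had no row.

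Of the 37 genes, 32 had a mean of 1 FPKM or more and entered the test, which was limma on log2(FPKM + 1) over all 11500 such rows with Benjamini-Hochberg adjustment. With lnc-31 siRNA 9 of the 32 rose (28.1%), against 5.64% of all tested rows. These were 5 collagen chains (Col1a1, Col3a1, Col5a1, Col6a1 and Col6a2) and 4 factors that work on collagen (Serpinh1, Plod2, P4ha2 and Lox). Their means were 14.6% to 29.6% above the scrambled siRNA mean. All 9 averaged 27.36 FPKM or more over the 4 libraries, and the share called among all rows of like level was not tested. No member fell by limma, against 6.78% of all tested rows, although Loxl3 had an unadjusted p under 0.05. Over the 32 genes the median log2 fold change was 0.05, and over all tested rows it was -0.01. Both lnc-31 siRNA libraries lay above both scrambled siRNA libraries for 18 of the 32 genes (28.5% of all tested rows) and below them for 8 (31.7% of all tested rows).

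Most of these calls were lost when a library was left out. Without SCR_1 limma called 0 of the 9 (10 members had an unadjusted p under 0.05 in that direction), without SCR_2 it called 2, without SI_1 it called 4 and without SI_2 it called 1. With fewer libraries the share of all tested rows called higher also went down, to 1.24% to 3.01%. All 9 kept a positive fold change in each of these fits. Because the RNA came from bulk cultures, a change in the number of cells of a type and a change in RNA per cell cannot be told apart.

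**Figure D1:**
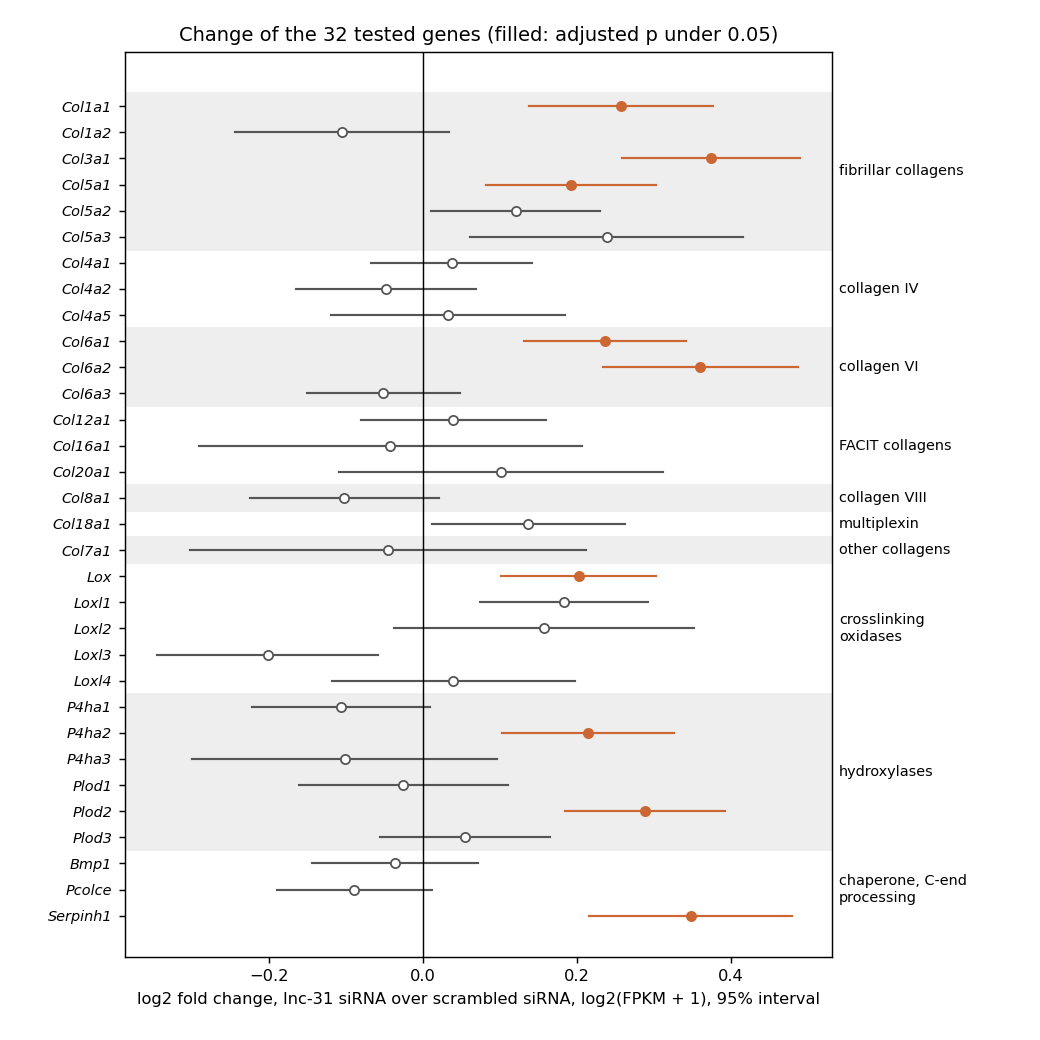
Log2 fold change (horizontal axis, lnc-31 siRNA over scrambled siRNA on the log2(FPKM + 1) scale) of the 32 tested genes, grouped by role, with 95% intervals from limma; filled points passed an adjusted p of 0.05. The 9 filled points lie between 0.19 and 0.37. Of the 32 points 20 lie right of 0 and 12 lie left of it, among them Col1a2, Col6a3, P4ha1 and Loxl3.

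The sequences just before the start of several of these genes are shown so that the promoters of 4 members that rose can be read beside that of Col1a2, which did not rise. RefSeq promoters on GRCm38.p6 were found for 26 of the 37 genes (28 windows). Each line gives the 250 bases before the annotated start, read 5′ to 3′ on the strand of the gene. Capitals mark the motifs that were searched on both strands: CCAAT (a box bound by NF-Y), GGGCGG (the GC box), TATAAA (the TATA box), CAGCTG (an E-box) and ACGTG (the core of hypoxia response elements). The heat shock core GAANNTTC and the endoplasmic reticulum stress element (ERSE, which begins with CCAAT) were searched as well.
Col3a1 (chr1:45311288-45311537, plus strand): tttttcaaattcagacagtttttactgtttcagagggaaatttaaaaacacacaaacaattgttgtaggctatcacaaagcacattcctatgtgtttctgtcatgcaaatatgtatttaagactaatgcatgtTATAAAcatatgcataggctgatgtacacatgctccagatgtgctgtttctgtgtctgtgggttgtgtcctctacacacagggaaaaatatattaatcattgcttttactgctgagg
Col6a1 (chr10:76726045-76726294, minus strand): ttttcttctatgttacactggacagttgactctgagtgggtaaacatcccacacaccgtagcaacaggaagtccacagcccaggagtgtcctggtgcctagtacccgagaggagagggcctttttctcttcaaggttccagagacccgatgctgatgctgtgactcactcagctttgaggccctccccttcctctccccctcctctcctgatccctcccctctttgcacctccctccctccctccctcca
Serpinh1 (chr7:99353240-99353489, minus strand): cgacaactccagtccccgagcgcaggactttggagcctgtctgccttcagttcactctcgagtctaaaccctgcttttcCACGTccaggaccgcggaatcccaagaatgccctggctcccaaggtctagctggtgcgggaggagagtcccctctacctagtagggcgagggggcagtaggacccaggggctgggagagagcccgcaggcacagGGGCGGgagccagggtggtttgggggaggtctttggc
P4ha2 (chr11:54100674-54100923, plus strand): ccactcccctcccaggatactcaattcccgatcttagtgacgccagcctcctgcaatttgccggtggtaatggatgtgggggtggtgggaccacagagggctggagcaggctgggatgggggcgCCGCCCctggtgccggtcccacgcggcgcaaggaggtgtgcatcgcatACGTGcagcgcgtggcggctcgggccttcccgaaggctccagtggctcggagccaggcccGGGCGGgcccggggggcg
Col1a2 (chr6:4505368-4505617, plus strand): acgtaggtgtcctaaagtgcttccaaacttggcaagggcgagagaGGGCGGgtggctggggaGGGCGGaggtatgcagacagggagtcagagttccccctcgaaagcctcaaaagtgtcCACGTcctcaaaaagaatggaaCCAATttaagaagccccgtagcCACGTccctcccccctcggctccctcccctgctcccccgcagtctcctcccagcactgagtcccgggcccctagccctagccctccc

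Col3a1 had the lowest GC content of these windows (35.2%) and the single TATAAA among the 6 risen genes with a window, 117 bases before the start. The Col6a1 window held none of the motifs. Serpinh1 and P4ha2 each held GGGCGG and ACGTG, and so did Col1a2, which also held a CCAAT 109 bases before its start. Over all members with a window, GGGCGG was found in 19 of 26 genes and 20 of 28 windows, where 32.7% of all 32851 RefSeq windows hold it. The member windows were richer in GC (median 61.8% against 52.4% for all windows), and the motif's share at equal GC was not tested. CCAAT was found in 10 of 26 genes (33.8% of all windows). Those 10 were among the 20 genes with a window that were not called higher, of which 3 were not tested. Of the 6 risen genes with a window 0 had it. Col1a1, Plod2 and Lox, which also rose, had no window, so their promoters were not read. ACGTG was found in 7 of 26 (16.6% of all windows), TATAAA in 4 (12.4%), CAGCTG in 4 (13.0%) and GAANNTTC in 1, Col4a5 (6.69%). No member held the stress element (0.113% of all windows). The motifs were chosen with the results known, and a match describes only the letters in these windows.

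Fibrillar collagens came first by level. Col1a1, Col1a2 and Col3a1 together made up 73.9% to 74.6% of the collagen FPKM in each library. The FPKM sum of the 23 collagens was 2092 and 2201 with scrambled siRNA and 2383 and 2343 with lnc-31 siRNA. Both lnc-31 siRNA libraries were higher, but 2 against 2 libraries cannot give an exact two-sided permutation p below 0.333, the value here.

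**Figure D2:**
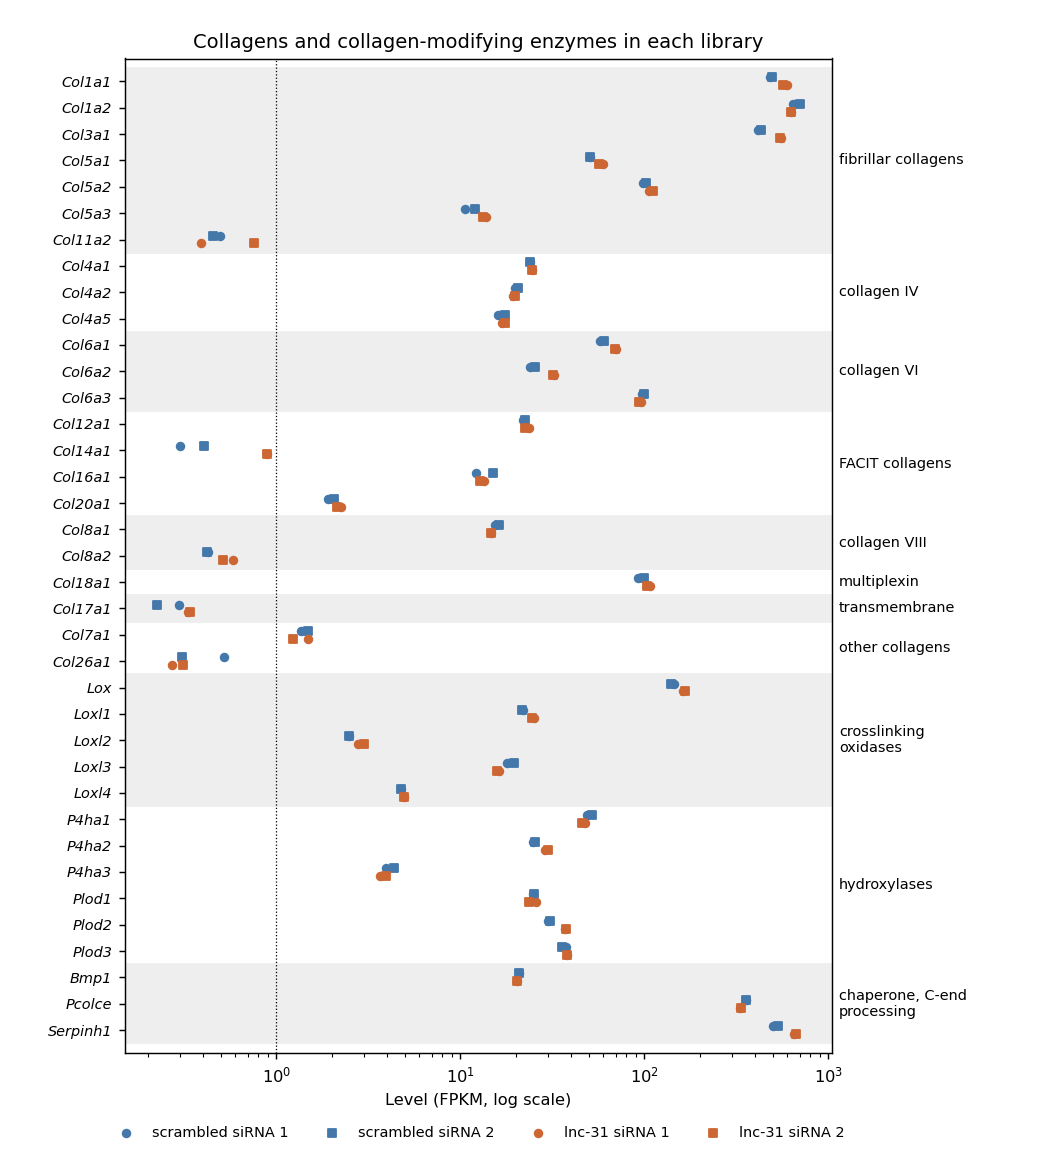
FPKM (horizontal log axis) of all 37 genes in each of the 4 libraries, grouped by role; blue points are scrambled siRNA, orange points lnc-31 siRNA, and the dotted line marks 1 FPKM. Collagen I and III chains, Serpinh1 and Pcolce lie at 334 FPKM or more in every library, and 5 collagens lie left of the line.

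Col3a1 (chr1:45311538-45349706, mm10), whose chain forms the homotrimer of collagen III, had the largest log2 fold change of the tested members. It was at 415 and 433 FPKM after scrambled siRNA and at 554 and 545 with lnc-31 siRNA. The groups were well apart. The log2 fold change was 0.37 (limma, SE 0.047, adjusted p = 0.011). Col3a1 stayed called without SCR_2 (adjusted p = 0.0499), SI_1 (0.038) or SI_2 (0.042), but not without SCR_1 (0.076).

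The chains of collagen I, the main fibril collagen of bone, tendon and muscle connective tissue, are encoded by Col1a1, which passed the test, and Col1a2, which did not. Col1a1 (chr11:94936224-94953042) was at 483 and 494 FPKM after scrambled siRNA and at 598 and 571 with lnc-31 siRNA. It rose, with a log2 fold change of 0.26 (SE 0.048, adjusted p = 0.029), and lost its call without any 1 library (adjusted p = 0.14 without SCR_1, 0.11 without SCR_2, 0.094 without SI_1 and 0.068 without SI_2). Col1a2 (chr6:4505618-4541543) was at 648 and 702 FPKM after scrambled siRNA and at 625 and 628 with lnc-31 siRNA, the reverse order. Its log2 fold change was -0.11 (95% interval -0.24 to 0.03, adjusted p = 0.27) and did not pass.

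As both chains enter the same molecule, their ratio within a library was also taken. Col1a1 over Col1a2 was 0.745 and 0.704 with scrambled siRNA and 0.956 and 0.909 with lnc-31 siRNA, a shift of 0.36 on the log2 scale. Col3a1 over Col1a2 was 0.640 and 0.617 against 0.887 and 0.867. Each pair of groups was apart. This was the case for 13 of 14 ratios between members, 12 of them higher with lnc-31 siRNA. The pairs share genes and were chosen with the results known. An exact two-sided permutation test cannot go below p = 0.333 with these libraries, and the values adjusted over the 14 pairs were 0.36 for those 13.

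Collagen V, which sits inside collagen I fibrils and starts their assembly, was lower in level than collagens I and III. Col5a1 (chr2:27886381-28039510) was at 51.0 and 50.7 FPKM after scrambled siRNA and at 59.9 and 56.7 with lnc-31 siRNA. The libraries of each group stayed apart, and the gene rose by a log2 fold change of 0.19 (SE 0.045, adjusted p = 0.048), close to the threshold. Without SCR_1, SCR_2, SI_1 or SI_2 its adjusted p was 0.16, 0.16, 0.16 and 0.080. The Col5a1 call was also lost without the filter on low values, under median of ratios scaling and with a constant prior.

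Col5a2 was at 98.3 and 101.7 FPKM after scrambled siRNA and at 106.4 and 111.3 with lnc-31 siRNA (log2 fold change 0.12, adjusted p = 0.13). Col5a3, a chain of limited tissue range, was at 10.7 and 12.1 FPKM and at 13.9 and 13.2 (log2 fold change 0.24, adjusted p = 0.088). Both genes had groups apart with lnc-31 siRNA higher, and neither passed the test. Col5a1 over Col5a2 was the only one of the 14 ratios whose groups overlapped (0.519 and 0.499 against 0.563 and 0.510). Of 6 tested fibrillar chains 3 rose, and 5 had positive fold changes.

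Collagen VI forms beaded filaments close to the muscle fiber basement membrane, from chains of Col6a1, Col6a2 and Col6a3, and its loss causes muscular dystrophies. Col6a1 (chr10:76708792-76726044) was at 57.7 and 60.4 FPKM after scrambled siRNA and at 70.0 and 69.4 with lnc-31 siRNA. Col6a2 (chr10:76595756-76623630), its neighbour at a distance of 85.2 kb, was at 23.9 and 25.7 FPKM against 32.2 and 31.9. Both rose, and both had clearly separate groups. The log2 fold change was 0.24 for Col6a1 (SE 0.042, adjusted p = 0.026) and 0.36 for Col6a2 (SE 0.051, adjusted p = 0.016).

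Col6a3 (chr1:90766860-90844001) was the most abundant of the chains and did not rise. It was at 97.4 and 100.1 FPKM after scrambled siRNA and at 96.3 and 94.2 with lnc-31 siRNA (log2 fold change -0.05, 95% interval -0.15 to 0.05, adjusted p = 0.43). Within libraries, Col6a1 over Col6a3 was 0.592 and 0.603 against 0.727 and 0.737, and Col6a2 over Col6a3 was 0.245 and 0.256 against 0.334 and 0.339. The less abundant chains thus stood nearer to the level of Col6a3 with lnc-31 siRNA. The call of Col6a1 was lost with any library left out (adjusted p = 0.12 without SCR_1, 0.073 without SCR_2, 0.085 without SI_1 and 0.086 without SI_2). That of Col6a2 was lost without SCR_1 (0.069) and without SI_2 (0.054), and held in the other fits with a library left out (0.038 and 0.049).

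**Figure D3:**
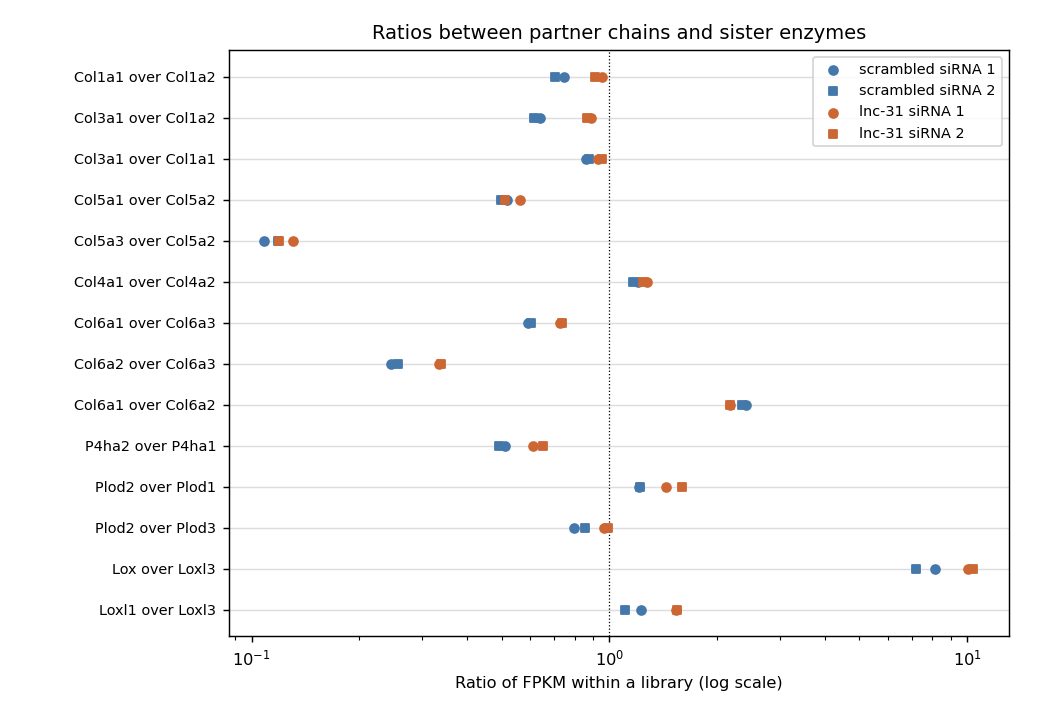
Ratio of FPKM of paired members (horizontal log axis) within each of the 4 libraries; blue points are scrambled siRNA, orange points lnc-31 siRNA, and the dotted line marks a ratio of 1. Orange points lie right of the blue ones for 12 of 14 pairs, left for Col6a1 over Col6a2, and among them for Col5a1 over Col5a2.

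Collagen IV is the network of basement membranes, and its chains showed no call by limma (0 of 3, with 0 at an unadjusted p under 0.05). Col4a1 and Col4a2 lie head to head on chromosome 8, and their annotated bodies overlap by 85 bases (chr8:11198423-11312889 and chr8:11312805-11449287). Col4a1 was at 24.01 and 24.09 FPKM after scrambled siRNA and at 24.7 in both lnc-31 siRNA libraries. Col4a2 was at 19.96 and 20.66 FPKM and at 19.4 and 19.9. These ranges lay close together, with log2 fold changes of 0.04 (95% interval -0.07 to 0.14) for Col4a1 and -0.05 (-0.16 to 0.07) for Col4a2. Col4a5, on the X chromosome, was at 16.0 and 17.6 FPKM after scrambled siRNA and at 17.0 and 17.4 with lnc-31 siRNA, with overlapping groups. Col4a3, Col4a4 and Col4a6 had no row.

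Among the remaining collagens Col18a1, the basement membrane collagen from which endostatin is cut, was the most abundant. It was at 92.8 and 99.4 FPKM after scrambled siRNA and at 107.8 and 103.6 with lnc-31 siRNA, apart but not called (log2 fold change 0.14, adjusted p = 0.14). The fibril-associated collagens Col12a1, Col16a1 and Col20a1 had log2 fold changes of 0.04, -0.04 and 0.10, with adjusted p from 0.47 to 0.82. Col8a1, a network-forming collagen, was at 15.5 and 16.2 FPKM and at 14.8 and 14.7 (log2 fold change -0.10, adjusted p = 0.23). Col7a1, the anchoring fibril collagen of skin, was at 1.236 to 1.498 FPKM with overlapping groups.

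The 5 members under a mean of 1 FPKM were Col11a2, Col14a1, Col8a2, Col17a1 and Col26a1, and they were not tested in the main comparison. Col14a1, a fibril-associated collagen, is named after its values were seen. It was at 0.301 and 0.407 FPKM after scrambled siRNA and at 0.897 and 0.887 with lnc-31 siRNA. In the fit without a filter on low values Col14a1 passed (log2 fold change 0.48 on the log2(FPKM + 1) scale, SE 0.091, adjusted p = 0.037), while the other 4 had adjusted p from 0.43 to 0.73. No member was listed at 0 in any library. A further 21 gene symbols of RefSeq match the naming rule and had no row, among them the cartilage collagens Col2a1, Col9a1, Col10a1 and Col11a1.

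Of the members that act on procollagen inside the cell, Serpinh1, Plod2 and P4ha2 passed the test. Serpinh1 (chr7:99345375-99353239) encodes HSP47, the chaperone dedicated to procollagen, and was the second most abundant member. It was at 501 and 535 FPKM after scrambled siRNA and at 649 and 668 with lnc-31 siRNA. The groups were far apart relative to their spread, and the log2 fold change was 0.35 (SE 0.053, adjusted p = 0.018). Its call held without SI_1 (adjusted p = 0.045). It was lost without SCR_1 (0.0995), SCR_2 (0.056) or SI_2 (0.069).

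Lysyl hydroxylases prepare lysines for glycosylation and crosslinking, and PLOD2 is the form that acts on the telopeptides at the chain ends. Plod2 (chr9:92539636-92608428) was at 30.1 and 30.7 FPKM after scrambled siRNA and at 37.0 and 37.8 with lnc-31 siRNA. It rose, with the groups apart (log2 fold change 0.29, SE 0.042, adjusted p = 0.017). Its call held without SI_1 (0.048) and was lost without SCR_1 (0.084), SCR_2 (0.064) or SI_2 (0.068).

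Plod1 was at 25.0 and 25.3 FPKM after scrambled siRNA and at 25.7 and 23.6 with lnc-31 siRNA. Plod3 was at 37.7 and 35.9 FPKM and at 38.3 and 38.2. Neither sister enzyme passed (log2 fold changes -0.03 and 0.05, 95% intervals -0.16 to 0.11 and -0.06 to 0.17). Plod2 over Plod1 was 1.21 and 1.22 with scrambled siRNA and 1.44 and 1.60 with lnc-31 siRNA.

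Prolyl 4-hydroxylase makes the hydroxyproline that keeps the triple helix stable at body temperature, and its catalytic subunits come in 3 forms. P4ha2 (chr11:54100924-54131668) was at 25.0 and 25.5 FPKM after scrambled siRNA and at 28.9 and 30.0 with lnc-31 siRNA. It rose (log2 fold change 0.21, SE 0.045, adjusted p = 0.038), and with 1 library left out its adjusted p was 0.15 and 0.11 (SCR_1 and SCR_2) and 0.084 and 0.14 (SI_1 and SI_2). P4ha1, the most abundant of the 3, was at 49.0 and 51.9 FPKM after scrambled siRNA and at 47.4 and 46.2 with lnc-31 siRNA, lower in both libraries but not called (log2 fold change -0.11, adjusted p = 0.19). P4ha3 was at 3.97 and 4.35 FPKM after scrambled siRNA and at 3.64 and 3.97 with lnc-31 siRNA (adjusted p = 0.44). P4ha2 over P4ha1 went from 0.509 and 0.492 to 0.610 and 0.650.

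Lysyl oxidases act outside the cell, where they oxidize lysines so that crosslinks can form. Lox, the founding member of the family, was the most abundant, at 145 and 141 FPKM after scrambled siRNA and at 163 and 166 with lnc-31 siRNA. It rose, with groups apart (log2 fold change 0.20, SE 0.040, adjusted p = 0.034). With SCR_1 or SCR_2 left out its adjusted p was 0.11 and 0.15, and with SI_1 or SI_2 left out 0.087 and 0.12. Loxl1, which is known for its part in elastic fibers, was at 22.004 and 21.552 FPKM after scrambled siRNA and at 25.1 and 24.6 with lnc-31 siRNA. It missed the threshold narrowly (log2 fold change 0.18, adjusted p = 0.053) and passed under quantile normalization and with a mean of 5 FPKM or more.

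Loxl3 was the only one of the 5 family members with a negative fold change. It was at 17.9 and 19.5 FPKM after scrambled siRNA and at 16.3 and 16.0 with lnc-31 siRNA. Both lnc-31 siRNA values were lower, but the difference did not pass (log2 fold change -0.20, 95% interval -0.35 to -0.06, adjusted p = 0.079). Lox over Loxl3 was 8.12 and 7.21 against 10.03 and 10.4. Loxl2 was at 2.48 and 2.49 FPKM against 2.80 and 2.99, and Loxl4 at 4.79 and 4.76 against 4.94 and 4.93, with adjusted p of 0.24 and 0.72.

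The factors that cut the procollagen C-terminal ends gave no call. Bmp1, the protease, was at 20.8 and 20.9 FPKM after scrambled siRNA and at 20.3 in both lnc-31 siRNA libraries (log2 fold change -0.04, adjusted p = 0.62). Pcolce, its enhancer, shares a row with Fbxo24, so their fragments cannot be told apart. That row was at 358 and 356 FPKM after scrambled siRNA and at 334 and 337 with lnc-31 siRNA, lower but not called (log2 fold change -0.09, adjusted p = 0.20).

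Other genes of the collagen pathway were taken from 4 lists. In the list of folding, glycosylation and export, 4 of 21 tested genes rose and 1 fell, beside 5.64% and 6.78% of all tested rows (median log2 fold change 0.07). Tmem38b, an ion channel of the endoplasmic reticulum whose loss causes brittle bone disease, was at 8.23 and 8.52 FPKM after scrambled siRNA and at 12.3 and 13.2 with lnc-31 siRNA (log2 fold change 0.55, adjusted p = 0.0085). Lepre1, a prolyl 3-hydroxylase of collagen, was at 19.8 and 20.5 FPKM against 25.4 and 27.8 (0.38, adjusted p = 0.018). The 2 other genes that rose were Fkbp14, a prolyl isomerase (log2 fold change 0.34), and Creb3l1, a transcription factor that activates Col1a1 in bone (0.29).

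Hsp90b1, a general chaperone of the endoplasmic reticulum, went the other way, from 434 and 447 FPKM to 377 and 379 (log2 fold change -0.22, adjusted p = 0.033). The Tmem38b call held with each library left out. Without SCR_1, SCR_2 or SI_2, Lepre1 had adjusted p of 0.084, 0.061 and 0.059. Fkbp14, Creb3l1 and Hsp90b1 lost their calls with any library left out. Their adjusted p values were 0.089, 0.10 and 0.12 without SCR_1 and 0.054, 0.052 and 0.15 without SCR_2. They were 0.074, 0.077 and 0.10 without SI_1 and 0.065, 0.075 and 0.10 without SI_2.

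In the list of N-terminal processing and fibril organizers, 8 of 15 tested genes rose and none fell by limma, with 0 lower at an unadjusted p under 0.05 (median log2 fold change 0.21). Of all tested rows 5.64% rose and 6.78% fell. Fmod, which encodes fibromodulin, a small proteoglycan that binds collagen I, was at 1.72 and 1.55 FPKM after scrambled siRNA and at 3.43 in both lnc-31 siRNA libraries (log2 fold change 0.75, adjusted p = 0.0092). Ogn, which encodes the related osteoglycin, was at 86.7 and 90.6 FPKM against 114.9 and 113.1 (0.36, adjusted p = 0.010). Both had groups far apart. Postn (0.99), Dcn (0.75), Fbn1 (0.31) and Thbs2 (0.24) also rose. The log2 fold changes of these genes exceeded those of the collagens they bind in the case of Postn, Dcn and Fmod, a difference that was not tested.

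The calls of Postn, Dcn and Fmod held with each library left out, and that of Ogn was lost without SCR_1 (adjusted p = 0.063). Fbn1 and Thbs2 lost theirs with any library left out. Their adjusted p values were 0.084 and 0.11 without SCR_1, 0.056 and 0.087 without SCR_2, 0.060 and 0.085 without SI_1, and 0.064 and 0.087 without SI_2.

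Among 11 tested collagen receptors and breakdown genes, 2 rose and 2 fell, counts to be read beside the 5.64% and 6.78% of all tested rows. Those that rose degrade matrix. The gelatinase Mmp2 was at 32.5 and 34.1 FPKM after scrambled siRNA and at 40.25 and 39.98 with lnc-31 siRNA (log2 fold change 0.26, adjusted p = 0.024), and the lysosomal protease Ctsl at 287 and 297 against 356 and 359 (0.29, adjusted p = 0.017). The 2 that fell encode inhibitors of metalloproteinases. Timp3 went from 31.7 and 30.3 FPKM to 22.32 and 24.01 (log2 fold change -0.41, adjusted p = 0.014), and Timp1 from 251 and 252 to 213 and 223 (-0.20, adjusted p = 0.039).

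Timp3 lost its call without SCR_1 (adjusted p = 0.071) and Ctsl kept its own only without SI_1 (0.049; 0.099 and 0.066 without SCR_1 and SCR_2, and 0.064 without SI_2). Mmp2 and Timp1 had adjusted p of 0.11 and 0.15 without SCR_1 and 0.065 and 0.15 without SCR_2. The values were 0.077 and 0.13 without SI_1 and 0.079 and 0.080 without SI_2.

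Of 28 tested regulators known to act on collagen genes 2 rose and 3 fell, close to the 5.64% and 6.78% of all tested rows, with a median log2 fold change of -0.03. Scx, the tendon transcription factor that activates Col1a1 and Col1a2, was at 31.1 and 30.8 FPKM after scrambled siRNA and at 39.3 and 45.2 with lnc-31 siRNA (log2 fold change 0.43, adjusted p = 0.021). The receptor gene Tgfbr2 rose by less (0.20, adjusted p = 0.043). Myc (-0.33), Egr1 (-0.28) and Ctgf (-0.33), growth and TGF-beta response genes, fell. The ligands Tgfb1, Tgfb2 and Tgfb3 gave no call (log2 fold changes 0.01, 0.05 and 0.16).

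Among these regulators Scx lost its call without SCR_1 (adjusted p = 0.086) or 2 (0.077). Myc kept its own only without SI_2 (0.047; 0.084 and 0.052 without SCR_1 and SCR_2, and 0.059 without SI_1). Egr1, Ctgf and Tgfbr2 lost theirs with any library left out. The values were 0.10, 0.15 and 0.16 without SCR_1 and 0.066, 0.077 and 0.12 without SCR_2. They were 0.074, 0.12 and 0.11 without SI_1 and 0.080, 0.075 and 0.15 without SI_2.

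**Figure D4:**
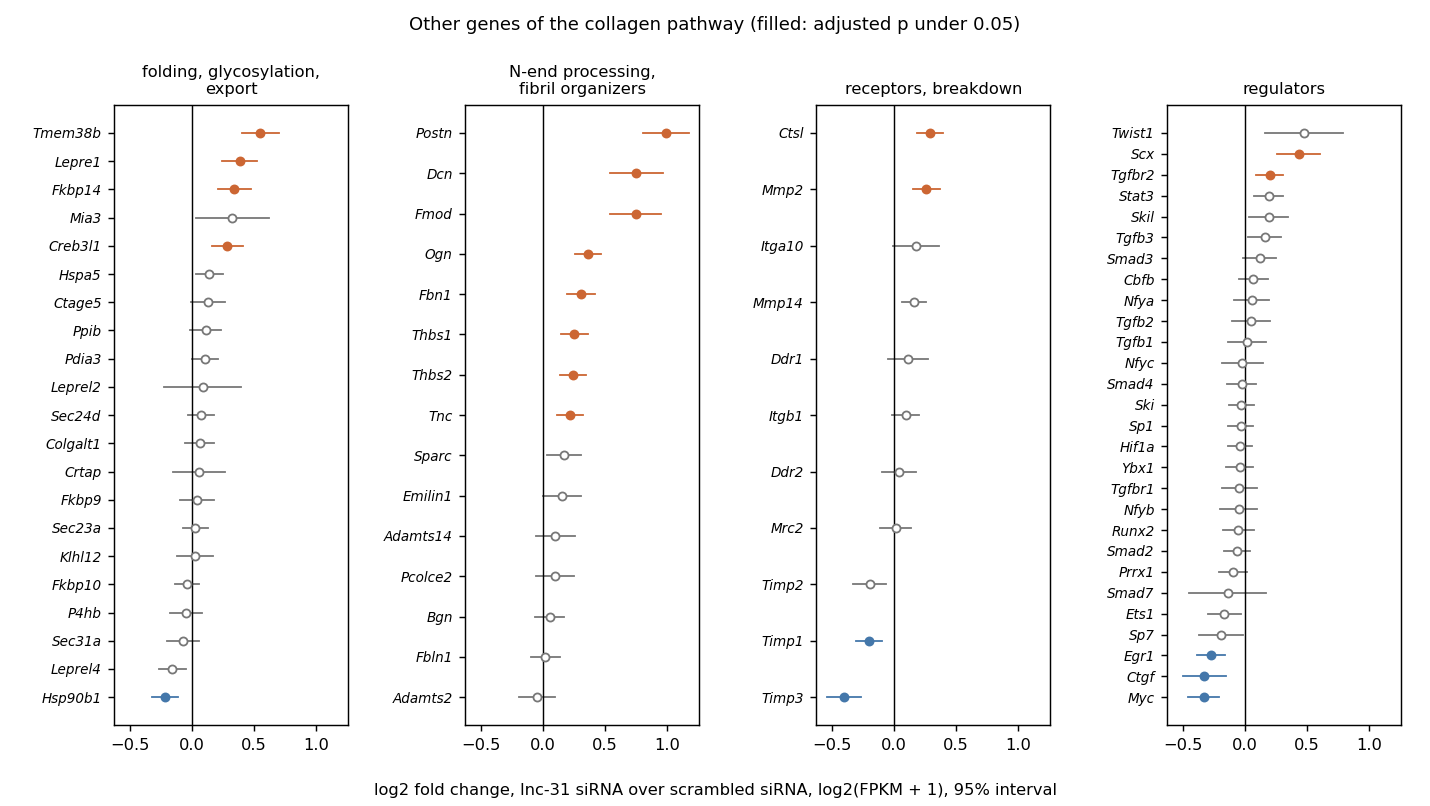
Log2 fold change (horizontal axis, lnc-31 siRNA over scrambled siRNA on the log2(FPKM + 1) scale) of the tested genes of 4 pathway lists, 1 panel each, with 95% intervals from limma; orange and blue filled points passed higher and lower. The second panel holds 8 orange points and no blue one, and Postn lies farthest right at 0.99.

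Markers of cell types moved beside these genes. Of the 6 muscle lineage markers 5 rose by limma (5.64% of all tested rows did). Myog (log2 fold change 0.73, adjusted p = 0.013) and Chrna1 (0.54, adjusted p = 0.0057) rose most. Myf5 was lower in both lnc-31 siRNA libraries without passing (log2 fold change -0.10, adjusted p = 0.16). The summed level of the 6 was 418 and 435 FPKM after scrambled siRNA and 536 and 548 with lnc-31 siRNA. Of 8 fibroblast and mesenchymal markers 6 had a row and 4 were tested, of which Pdgfrb rose (log2 fold change 0.20, adjusted p = 0.035). Their summed level was 69.0 and 65.5 FPKM against 77.1 and 81.0. Tcf21 and Thy1 of that list had no row, and Pdgfra was at 3.14 to 3.35 FPKM in all libraries. Pdgfrb was at 40.3 FPKM in both scrambled siRNA libraries and at 47.0 and 45.9 with lnc-31 siRNA. Twist2 was at 18.5 and 14.7 FPKM against 18.3 and 24.1, and Tcf7l2 at 6.38 and 6.48 against 6.95 and 6.12, both with overlapping groups. Dpt and Pi16, too low to be tested, were higher in both lnc-31 siRNA libraries: Dpt at 0.179 and 0.189 FPKM against 0.623 and 0.814, and Pi16 at 0.526 and 0.508 against 0.899 and 0.770. No row of the table stays under 0.307 FPKM in all libraries, and both scrambled siRNA values of Dpt do. Dpt thus has a row only through its lnc-31 siRNA values, so a higher value there was fixed in advance. Of 8 osteoblast and chondrocyte markers 3 had a row, summing to 33.8 and 34.7 FPKM against 34.9 and 35.4, with Sox9 called higher (0.22, adjusted p = 0.047). The other two, Runx2 (log2 fold change -0.06) and Sp7 (-0.19), were lower in both lnc-31 siRNA libraries and did not pass (adjusted p = 0.50 and 0.13). With 1 library left out Myog and Chrna1 stayed called and Myod1 only without SI_1. Cdh15, Des, Pdgfrb and Sox9 lost their calls, with adjusted p of 0.12, 0.10, 0.14 and 0.16 without SCR_1 and 0.067, 0.11, 0.13 and 0.13 without SCR_2. They were 0.085, 0.052, 0.12 and 0.11 without SI_1 and 0.076, 0.093, 0.096 and 0.18 without SI_2. Myod1 was at 0.092, 0.061 and 0.058 without SCR_1, SCR_2 and SI_2. Of the 3 tendon markers only Scx had a row. The part of these cell types in the collagen changes was not tested.

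The pull-down was read by peaks in the bodies of these genes, and since each probe set has a single library, nothing here was tested. The lnc-31 probes had 1 peak in 1 of the 37 genes, out of 596 peaks, and 1.78% of 12321 named genes of the table held a peak of that list. The lacZ probes had 11 peaks in 4 of the 37, out of 476, and 1.68% of the named genes held a lacZ peak. The single lnc-31 probe peak lay in Col1a2 (chr6:4516801-4517000, 200 bases, about 11.2 kb from its start) and coincided over all 200 bases with a lacZ peak. The value deposited with each peak, read as a p-value from its range alone, was 0.00409 for the lnc-31 probe peak and 0.00623 for the lacZ peak at that place. No member held a lnc-31 probe peak without a lacZ peak.

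Col1a2 held 2 further lacZ peaks, at chr6:4512401-4512800 and chr6:4532001-4532200. Col3a1 held lacZ peaks at chr1:45311801-45312000, 263 bases into the gene, and at chr1:45334601-45334800. Its neighbour Col5a2 (chr1:45374331-45503282), whose annotated body lies 24.6 kb from that of Col3a1, held 4, among them chr1:45502401-45502600 with the lowest deposited value of the 12 member peaks (0.000477, rank 65 of 476). Lox held 2 lacZ peaks of 200 bases each. Exon positions were not used here, so these peaks are given by gene body only.

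The 4 genes with peaks are among the most abundant members. Of the 8 members at a mean of 100 FPKM or more, 4 held a lacZ peak and 1 a lnc-31 probe peak. Among all named genes at that level the shares were 5.29% and 2.31%, and the threshold was chosen with the values known. Members under 100 FPKM held no peak of either list. Col1a1, Serpinh1 and Pcolce, each at 334 FPKM or more, held none.

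**Figure D5:**
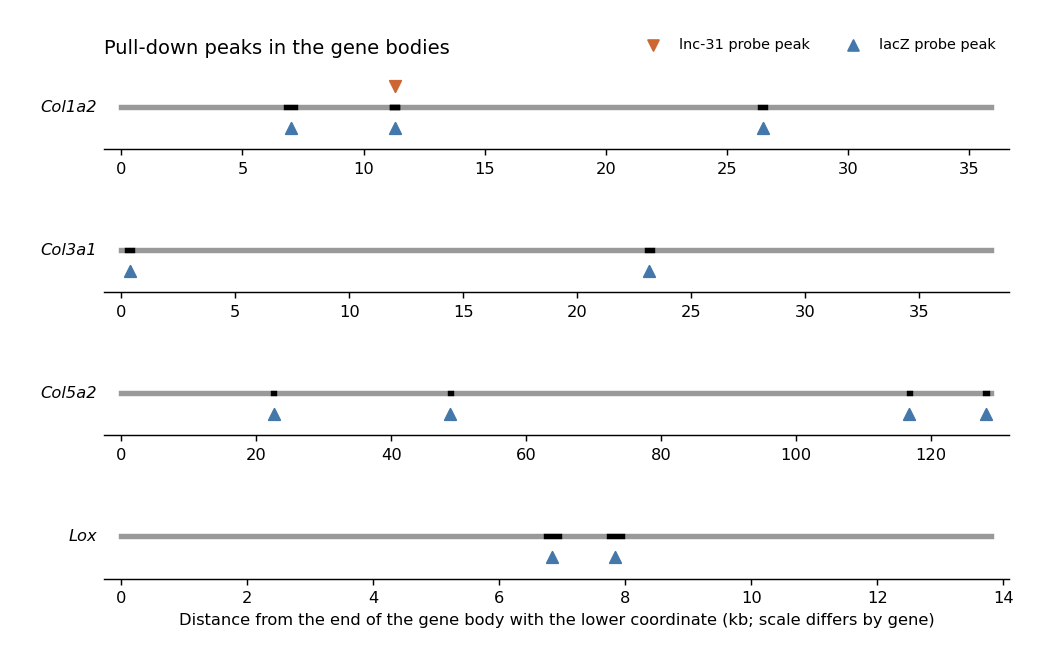
Positions of pull-down peaks along the bodies of the 4 genes that hold any, as distance in kb from the end of the body with the lower coordinate (horizontal axis, scaled to each gene); blue triangles below the line are lacZ probe peaks, the orange triangle above is the lnc-31 probe peak, and black segments show peak width. The only orange triangle stands over a blue one in Col1a2.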

How the data were processed

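Gene levels come from 4 siRNA libraries (TruSeq stranded mRNA) and peaks from 2 pull-down libraries (NuGEN Ovation V2), per the protocols in the labels. For genes the authors deposited FPKM; for that table the submitters' processing notes name mm10 and, in no stated order, Cuffdiff, TopHat2, BWA, Bowtie2, Trimmomatic and CASAVA. For the peak lists they name Picard, cutadapt, TopHat2, Bowtie2, Trimmomatic and CASAVA, also with mm10. The peak caller's name is not given in the sources used. The last value of each deposited peak has no header and was taken for a p-value from its range (above 0, at most 0.01). Since FPKM hold no read counts, depth is unknown. No row of the deposited table stays under 0.307 FPKM in all libraries, and 0 sample columns matched no label.

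The comparison used log2(FPKM + 1) of rows averaging 1 FPKM or more, fitted with limma 3.58.1 in R 4.3.3 (trended prior, 3.62 prior degrees of freedom, two-sided, Benjamini-Hochberg over 11500 rows, threshold 0.05). A fold change on this scale understates the change of low genes. Genes and peaks were joined through RefSeq gene bodies on GRCm38.p6, which shares mm10 coordinates, with an overlap of at least 1 base (Python 3.11.15, pandas 2.3.3, numpy 2.4.6, matplotlib 3.10.9). Promoter sequences are RefSeq's, GRCm38.p6.

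Members and lists were chosen with earlier results of these data known, and some had entered an earlier list of matrix genes. Named were called members, the 6 most abundant collagens, all enzymes and helpers, members with peaks, and up to 6 called genes of each pathway list by smallest p. The other members, Tgfb1, Tgfb2, Tgfb3 and the marker genes were named as well. Alternatives were other pseudocounts, filters, scalings and priors, a replicate block, omission of each library, and other peak rules.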

Additional observations from a re-analysis of the deposited data

How the results depend on the processing

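The count of 9 members called higher stayed at 9 to 11 under both other pseudocounts, both other filters, quantile normalization and median of ratios scaling, and fell to 5 with a constant prior (Col1a1, Col3a1, Col6a2, Plod2 and Serpinh1). The cause was not tested. With 1 library left out it was 0 to 4, while 143 to 346 rows of the whole table were called higher and 157 to 293 lower, against 649 and 780 with all libraries. These fits have fewer samples, and the lone library of a group is assumed to vary like the other group. No member was called lower in any alternative. The median log2 fold change of the members was 0.05, 0.084 without a filter (37 members instead of 32) and 0.053 to 0.10 with 1 library left out. With 1 library left out the log2 fold change of 7 uncalled genes turned sign, over ranges of -0.083 to 0.033 (Plod1), -0.034 to 0.099 (Col4a5), -0.19 to 0.10 (Col16a1), -0.12 to 0.031 (Col7a1), -0.063 to 0.087 (Tgfb1), -0.012 to 0.10 (Tgfb2) and -0.061 to 0.097 (Tcf7l2, also -0.0016 under quantile normalization). Of the 544 other values of the 69 tested genes named, in alternatives with all libraries, 521 kept direction and side of the threshold, 18 lost their call, 4 gained one and 1 turned sign.

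With the replicate number as a block, 9 members rose, and 728 rows of the table were called higher and 885 lower. Same-numbered libraries deviated from their group means with a correlation of -0.09, and no label says that a number marks a shared batch. Of these 69 genes, the block ended the calls of Ctgf and Sox9 (limma adjusted p = 0.056 and 0.051). 

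At a deposited value of 0.001 or less, 0 members kept a lnc-31 probe peak and 1 (Col5a2) a lacZ peak.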
